A study of Homo sapiens with 16 samples.

Results

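The dual specificity phosphatases (DUSP) described here were 10 genes: DUSP1, DUSP2, DUSP4, DUSP5, DUSP6, DUSP7, DUSP8, DUSP10, DUSP14 and DUSP16. They were chosen by name, with earlier results of these data known, and all 10 were among the 59609 genes of both RNA tables. A DUSP enzyme removes phosphate from tyrosine as well as from serine or threonine, and most of these 10 act on the activation loop of MAP kinases, which they switch off. Several DUSP genes are themselves transcribed when the MAP kinase cascade they act on is active, so they form a negative feedback loop, and their transcripts are widely read as markers of pathway output. DUSP1, DUSP2, DUSP4 and DUSP5 encode inducible nuclear enzymes, DUSP6 and DUSP7 cytoplasmic enzymes selective for ERK, and DUSP8, DUSP10 and DUSP16 enzymes directed at JNK and p38, while DUSP14 encodes a small atypical phosphatase.

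Polyadenylated RNA was sequenced from cells labelled Huh7, a line derived from a human hepatocellular carcinoma, in 2 experiments of 3 libraries per group. The first set cells treated with sorafenib, an inhibitor of several protein kinases and a treatment of liver cancer, beside cells given its solvent DMSO. The second set cells overexpressing MT1G (MT1G-OE), a metal-binding metallothionein, beside cells with an empty vector (Vec). Open chromatin was mapped by ATAC-seq, in which a transposase cuts accessible DNA, in 2 sorafenib and 2 DMSO libraries. The labels gave no dose, no treatment time, no promoter for the MT1G vector, no clone and no separate culture for each replicate, so p-values measure the spread between these libraries, which may be technical.

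The RNA libraries held 16549330 to 26781600 reads in genes. MT1G, the check of the labels, had 140, 130 and 179 normalized read counts in MT1G-OE cells, against 0 in every Vec library. It also had 189, 158 and 194 normalized read counts in sorafenib cells, against 0 in every DMSO library. Of 10 hepatocyte and hepatoma markers, ALB, APOB and GPC3 had no read in any of the 12 libraries, and AFP, APOA1, TTR, SERPINA1, FGB and TF reached no more than 5.44 normalized read counts in any library. The liver factor HNF4A was the exception, at 88.8 to 152 in sorafenib cells, 333 to 350 in DMSO cells, 200 to 228 in MT1G-OE cells and 304 to 344 in Vec cells. The defining secreted products of the labelled cell type were thus at or near 0 in these tables. Summed markers of stellate cells and fibroblasts ranged over 1039 to 1079 with sorafenib, 2338 to 2591 with DMSO, 2644 to 3475 with MT1G-OE and 2159 to 2206 with Vec. LUM, the highest of these counts in most libraries, had 405, 453 and 483 normalized read counts with sorafenib, against 1696, 1771 and 1872 with DMSO, while COL1A1 overlapped between these groups and COL3A1 was higher with sorafenib, at 87.6 to 109.6 against 45.0 to 65.6. Summed endothelial markers ranged over 36.3 to 57.1 with sorafenib, 69.4 to 79.7 with DMSO, 39.5 to 48.7 with MT1G-OE and 46.5 to 75.7 with Vec. The part of these marker levels in the results below was not tested, and in bulk RNA fewer cells of a type and less RNA per cell cannot be told apart. Mitochondrial transcripts took 3.38% to 3.64% of reads with sorafenib and 4.75% to 5.09% with DMSO, whose part was likewise not tested.

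The promoters of 3 members are shown. Of the 4 members past the threshold in both RNA comparisons, DUSP4, DUSP5, DUSP6 and DUSP10, only DUSP6 and DUSP10 had RefSeq promoter entries. A second DUSP10 start is described below but not printed. DUSP1, the member with the most kinds of motif in its window, was added after its values were seen. Each printed promoter is the 250 bases before the RefSeq start in GRCh38.p14, on the minus strand, read 5′ to 3′. The motif search and its shares over all promoters used these same 250 bases. Capitals mark matches, on either strand, to any of the 7 motifs named after the sequences, with overlapping matches run together.
DUSP6 (chr12:89352502-89352751): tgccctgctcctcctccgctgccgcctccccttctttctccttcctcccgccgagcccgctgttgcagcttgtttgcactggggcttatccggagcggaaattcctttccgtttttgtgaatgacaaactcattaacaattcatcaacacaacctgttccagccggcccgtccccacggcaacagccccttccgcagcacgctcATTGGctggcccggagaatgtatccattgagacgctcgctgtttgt
DUSP10 (chr1:221742090-221742339): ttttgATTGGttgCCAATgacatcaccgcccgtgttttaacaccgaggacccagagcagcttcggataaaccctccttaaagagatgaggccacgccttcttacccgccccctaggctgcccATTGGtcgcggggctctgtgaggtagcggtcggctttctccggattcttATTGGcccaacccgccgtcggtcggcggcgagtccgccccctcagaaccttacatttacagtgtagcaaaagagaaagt
DUSP1 (chr5:172771196-172771445): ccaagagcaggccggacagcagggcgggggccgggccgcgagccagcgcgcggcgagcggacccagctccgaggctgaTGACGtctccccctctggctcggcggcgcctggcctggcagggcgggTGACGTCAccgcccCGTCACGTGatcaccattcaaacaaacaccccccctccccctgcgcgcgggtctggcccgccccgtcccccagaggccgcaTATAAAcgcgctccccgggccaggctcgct
The DUSP10 window held 4 CCAAT boxes (ATTGG on the opposite strand), the element bound by the factor NF-Y, and the DUSP6 window held 1. At least 1 CCAAT box was present in 32% of the 35116 RefSeq promoters of the same length, and the share with 4 was not counted. In the DUSP1 window lay 1 full cyclic AMP response element (TGACGTCA, bound by CREB and ATF factors), 4 copies of its core TGACG, of which 2 lie within the full element, 1 E-box (CACGTG) overlapping a core, and 1 TATA box (TATAAA). At least 1 full element was found in 1.65% of promoters, at least 1 core in 21.2%, the E-box in 6.34% and the TATA box in 10.7%. Shares with several copies were not counted. Neither TGANTCA, the AP-1 site, found in 6.57% of promoters, nor CCGGAA, an ETS site, found in 14.5%, occurred in any member's window. Of the 10 members 8 had RefSeq promoter entries. The DUSP8 window held 2 full cyclic AMP response elements, 4 cores and 1 CCAAT box, the DUSP2 window 1 E-box, and the windows of DUSP7, DUSP14, DUSP16 and a second DUSP10 start none of the 7 motifs. A match describes the letters of the window and is not a measured binding site.

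Under sorafenib, transcripts of DUSP4, DUSP5, DUSP6, DUSP10 and DUSP16 rose and those of DUSP2 and DUSP7 fell, while DUSP1 and DUSP8 did not pass the test and DUSP14 was too low to test. The 2 largest rises were those of DUSP6, selective for ERK, at 7.41 times the DMSO mean, and DUSP10, directed at JNK and p38, at 5.20 times the DMSO mean. Of the 9 members with a mean of at least 10 normalized read counts, 5 passed the test upward and 2 downward (limma, adjusted p under 0.05, Benjamini-Hochberg over 14915 genes). In the same comparison 70.3% of all genes tested passed that threshold, 34.4% higher and 35.8% lower, so the 7 of 9 stood near the background share. With a minimum absolute log2 change of 1 as well, 3 members were called, DUSP5, DUSP6 and DUSP10, against 21.4% of all genes tested. The median log2 change of the 9 members was 0.92, against -0.02 for all genes tested. In 7 of the 9 the sorafenib and DMSO values did not overlap, which was also the case for 73.0% of all genes tested.

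Among the inducible nuclear enzymes, DUSP5, which is selective for ERK, had 2346, 2346 and 2276 normalized read counts in sorafenib cells, against 1022, 901 and 951 in DMSO cells. Every sorafenib value was more than 2 times the highest DMSO value, and the log2 change was 1.28 (SE 0.06, adjusted p = 4.99e-11, limma). DUSP4, which acts on ERK and JNK, had 2296, 2186 and 2062 normalized read counts in sorafenib cells, against 1376, 1411 and 1274 in DMSO cells. The lowest sorafenib library stood well above the highest DMSO library, with a log2 change of 0.69 (SE 0.07, adjusted p = 1.04e-07, limma). DUSP2, known from activated lymphocytes, had 436, 359 and 395 normalized read counts in sorafenib cells, against 559, 519 and 609 in DMSO cells. All 3 sorafenib values were the lower ones, and the log2 change was -0.50 (SE 0.09, adjusted p = 0.000143, limma). DUSP1, an immediate early gene whose product dephosphorylates p38 and JNK, had 3205, 3155 and 2969 normalized read counts in sorafenib cells, against 3014, 2891 and 2882 in DMSO cells. These groups overlapped, and the log2 change of 0.09 (95% interval -0.04 to 0.21) did not pass the test at an adjusted p of 0.195 (limma).

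The 2 cytoplasmic ERK-selective enzymes moved in opposite directions under sorafenib. DUSP6, a standard transcript marker of ERK output, had 239.7, 288 and 274 normalized read counts in sorafenib cells, against 25.9, 37.6 and 44.7 in DMSO cells. The lowest sorafenib library was several times the highest DMSO library, and the log2 change was 2.89 (SE 0.18, adjusted p = 7.33e-10, limma). The DMSO level rested on 23, 39 and 41 reads. DUSP7 had 949, 1008 and 962 normalized read counts in sorafenib cells, against 1249, 1241 and 1293 in DMSO cells. The groups did not overlap, with sorafenib lower by a log2 change of -0.37 (SE 0.06, adjusted p = 6.99e-05, limma). In RefSeq the DUSP6 gene overlaps the readthrough locus POC1B-DUSP6, DUSP7 overlaps LOC124906238, and DUSP8 overlaps KRTAP5-AS1 and LOC124902608. Neither the use of strand in counting nor the handling of reads shared by overlapping genes was stated. Reads of overlapping transcripts thus cannot be told apart.

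Of the enzymes directed at JNK and p38, DUSP10 had 993, 1025 and 957 normalized read counts in sorafenib cells, against 177, 174 and 222 in DMSO cells. No other member had a smaller p in this comparison, where DUSP10 ranked 170 of the 14915 genes, with a log2 change of 2.38 (SE 0.10, adjusted p = 4e-12, limma). DUSP16, a JNK phosphatase that shuttles between nucleus and cytoplasm, had 1157, 1205 and 1232 normalized read counts in sorafenib cells, against 622, 656 and 624 in DMSO cells. The 2 groups lay far apart relative to their spread, with a log2 change of 0.92 (SE 0.07, adjusted p = 5.04e-09, limma). DUSP8 had 174, 128 and 7.48 normalized read counts in sorafenib cells, against 13.5, 43.4 and 8.73 in DMSO cells. The third sorafenib library was the lowest of all 6, at 7 reads against 206 and 141 in the other sorafenib libraries, and the groups overlapped. Its log2 change of 1.64 (95% interval -2.46 to 5.74) did not pass the test at an adjusted p of 0.386 (limma), and leaving out 1 library at a time it ran from 0.84 without sorafenib replicate 1 to 3.03 without sorafenib replicate 3, where the test was passed with an adjusted p of 0.0122. RefSeq lists 3 pseudogenes of DUSP8, and how reads were split among the copies is not given in the sources used here.

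DUSP14 had 2 reads in 1 sorafenib library and none in the other 11 RNA libraries, so it entered no test. A count of 0 allows up to 3 reads at this depth, for counting error only. Its transcript was thus at or near 0, although a region over its promoter was open in all 4 ATAC-seq libraries.

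**Figure D1:**
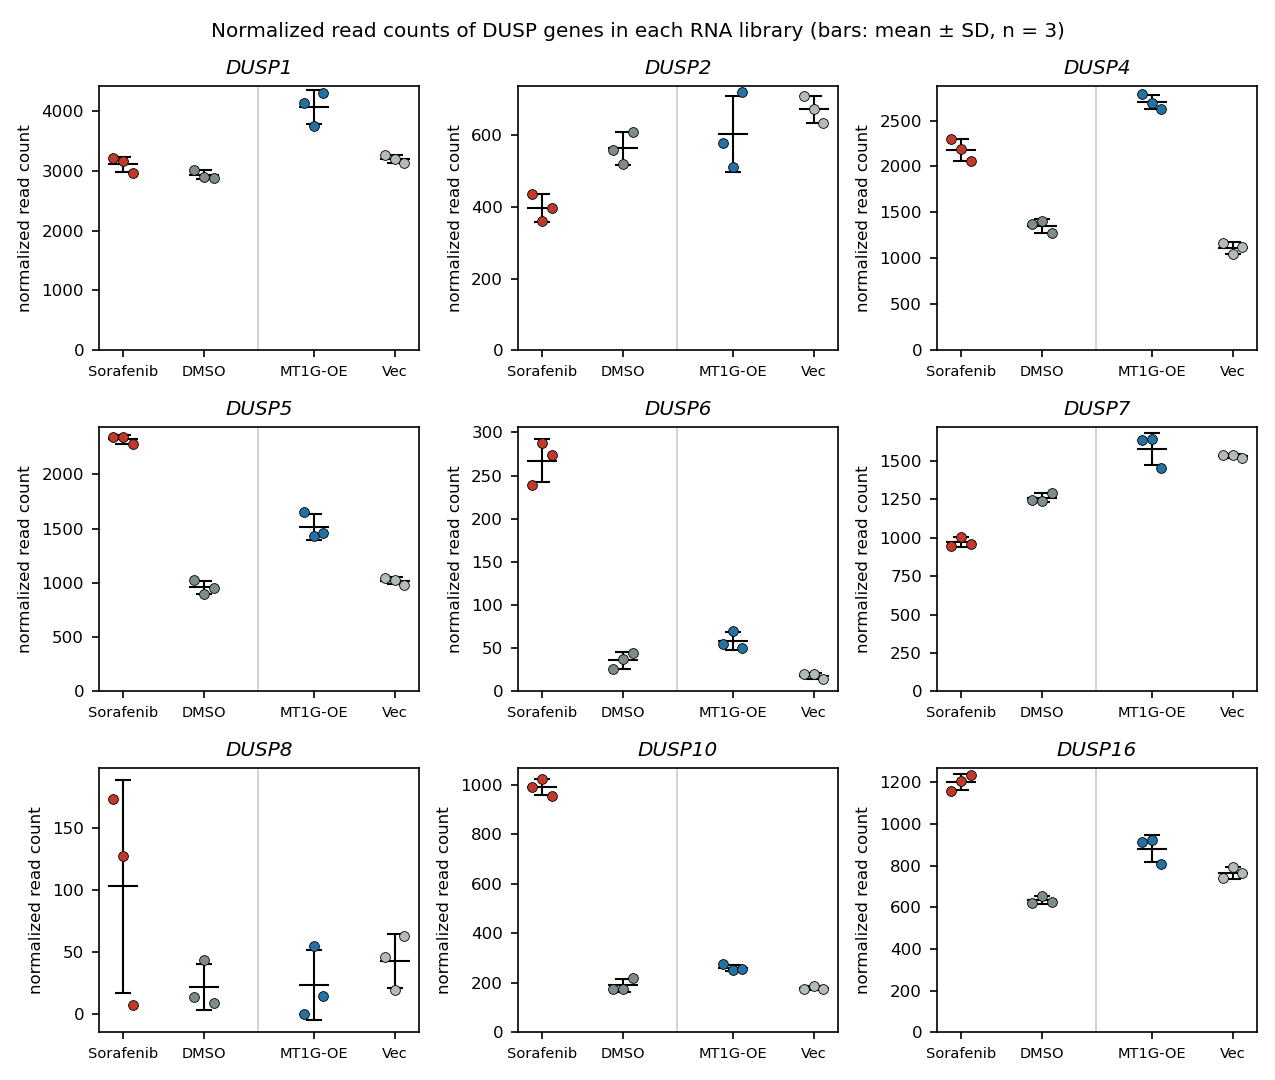
Normalized read counts (linear axes from 0, except DUSP8, whose axis starts slightly below 0) of the 9 members with measurable transcripts, 1 point per library, in sorafenib, DMSO, MT1G-OE and Vec cells, with the mean and SD of 3 libraries. The experiments were normalized separately, so points are compared within an experiment. DUSP6 and DUSP10 stand higher with sorafenib than with DMSO, at means of 267 and 991. DUSP4 and DUSP1 stand higher with MT1G-OE than with Vec, at means of 2701 and 4061. The DUSP8 points with sorafenib spread from 7.48 to 174.

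MT1G overexpression raised DUSP1, DUSP4, DUSP5, DUSP6 and DUSP10, and no member fell past the threshold. The largest of these rises were those of DUSP6, at 3.27 times the Vec mean, and DUSP4, at 2.43 times the Vec mean. Of 9 members tested 5 were higher and 0 lower (limma, Benjamini-Hochberg adjusted p under 0.05 over 13914 genes), against a background of 22.8% of genes called, 11.5% higher and 11.3% lower. A minimum absolute log2 change of 1 left DUSP4 and DUSP6, so 2 members, against 2.57% of all genes tested. In 6 of the 9 members the MT1G-OE and Vec values did not overlap, compared with 39.4% of all genes tested. The members' median log2 change was 0.34, while that of all genes tested was -0.00.

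DUSP4 had 2788, 2685 and 2629 normalized read counts in MT1G-OE cells, against 1171, 1045 and 1122 in Vec cells. Every MT1G-OE value was more than 2 times the highest Vec value, and DUSP4 ranked 34 by p among the 13914 genes, with a log2 change of 1.28 (SE 0.08, adjusted p = 2.58e-10, limma). DUSP5 had 1654, 1436 and 1461 normalized read counts in MT1G-OE cells, against 1045, 1029 and 985 in Vec cells. All MT1G-OE libraries were the higher ones, with a log2 change of 0.57 (SE 0.09, adjusted p = 7.23e-05, limma). DUSP1 had 4135, 3753 and 4294 normalized read counts in MT1G-OE cells, against 3267, 3202 and 3134 in Vec cells. The groups were separate and the log2 change was 0.34 (SE 0.08, adjusted p = 0.00365, limma). DUSP2 had 578, 509 and 718 normalized read counts in MT1G-OE cells, against 708, 673 and 634 in Vec cells. The third MT1G-OE library was the highest of all 6, the groups overlapped, and the log2 change of -0.17 (95% interval -0.41 to 0.06) had an adjusted p of 0.285 (limma), or -0.31 and 0.0272 without that library and -0.06 and 0.744 without MT1G-OE replicate 2.

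For DUSP6 the MT1G-OE libraries had 54.7, 69.8 and 50.5 normalized read counts, against 19.7, 19.7 and 14 in the Vec libraries. These rested on 55, 60 and 69 reads in MT1G-OE cells and on 18, 22 and 12 in Vec cells, and the groups did not overlap. The log2 change was 1.66 (SE 0.26, adjusted p = 0.000141, limma). DUSP7 had 1637, 1641 and 1455 normalized read counts in MT1G-OE cells, against 1541, 1541 and 1518 in Vec cells. One MT1G-OE library was below all Vec libraries and 2 were above, and the log2 change of 0.04 (95% interval -0.13 to 0.21) did not pass the test at an adjusted p of 0.766 (limma).

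DUSP10 had 275, 251 and 256 normalized read counts in MT1G-OE cells, against 175, 188 and 176 in Vec cells. The groups did not overlap and the log2 change was 0.53 (SE 0.12, adjusted p = 0.00361, limma). DUSP16 had 912, 925 and 806 normalized read counts in MT1G-OE cells, against 738, 794 and 764 in Vec cells. All 3 MT1G-OE values were above all Vec values by a small margin, yet the log2 change of 0.20 (95% interval 0.01 to 0.39) had an adjusted p of 0.115 (limma), or 0.26 and 0.0355 without MT1G-OE replicate 3. DUSP8 had 0, 54.7 and 14.6 normalized read counts in MT1G-OE cells, against 46.1, 19.7 and 63.0 in Vec cells. These values overlapped, and the log2 change of -2.05 (95% interval -6.80 to 2.69) did not pass the test at an adjusted p of 0.472 (limma). It was -0.43 without MT1G-OE replicate 1, the library at 0 reads, and -3.33 without MT1G-OE replicate 2.

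The authors' deposited table gave log2 fold changes of 2.23 for DUSP8 with sorafenib, at an adjusted p of 0.123, and -0.90 with MT1G overexpression, at an adjusted p of 0.750, so it also left DUSP8 uncalled. For the members past the threshold above, the log2 fold changes in the authors' deposited table ranged from -0.50 for DUSP2 to 2.89 for DUSP6 with sorafenib, and from 0.34 for DUSP1 to 1.70 for DUSP6 with MT1G overexpression. DUSP16 was not called for MT1G overexpression in the authors' deposited table either, at an adjusted p of 0.157.

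DUSP4, DUSP5, DUSP6 and DUSP10, so 4 of the 9 members tested, were past the threshold and higher in both RNA experiments, which share no libraries, as were 4.02% of the 13748 genes tested in both. Whether the sizes of the responses differed was tested in 1 model over all 12 libraries, as the sorafenib log2 change minus the MT1G log2 change. Of 9 members 7 differed at an adjusted p under 0.05 (limma, Benjamini-Hochberg over 13760 genes), 4 with a higher and 3 with a lower sorafenib response, where 54.3% of all genes tested differed, 25.3% higher and 29.0% lower. DUSP10 had the largest difference past the threshold, 1.87 (SE 0.14, adjusted p = 7.87e-10, limma). DUSP6 differed by 1.24 (SE 0.30, adjusted p = 0.00163), DUSP16 by 0.74 (SE 0.11, adjusted p = 5.38e-06) and DUSP5 by 0.73 (SE 0.10, adjusted p = 3.82e-06), all with the larger rise under sorafenib. DUSP4 went the other way, at -0.57 (SE 0.10, adjusted p = 4.44e-05), since its rise was larger with MT1G overexpression. DUSP7 differed by -0.39 (SE 0.10, adjusted p = 0.00149), from changes of -0.37 with sorafenib and 0.04 with MT1G overexpression. DUSP1 differed by -0.24 (SE 0.09, adjusted p = 0.0337), a call lost in 8 of 15 alternative settings, over all of which the adjusted p ranged from 0.00482 to 0.097. The difference of DUSP2 was -0.31 (95% interval -0.63 to 0.01, adjusted p = 0.0938) and that of DUSP8 was 3.73 (95% interval -1.63 to 9.08, adjusted p = 0.214), and neither passed the test. Leaving out 1 library at a time, they ran from -0.43 to -0.17 for DUSP2 and from 2.09 to 5.11 for DUSP8.

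**Figure D2:**
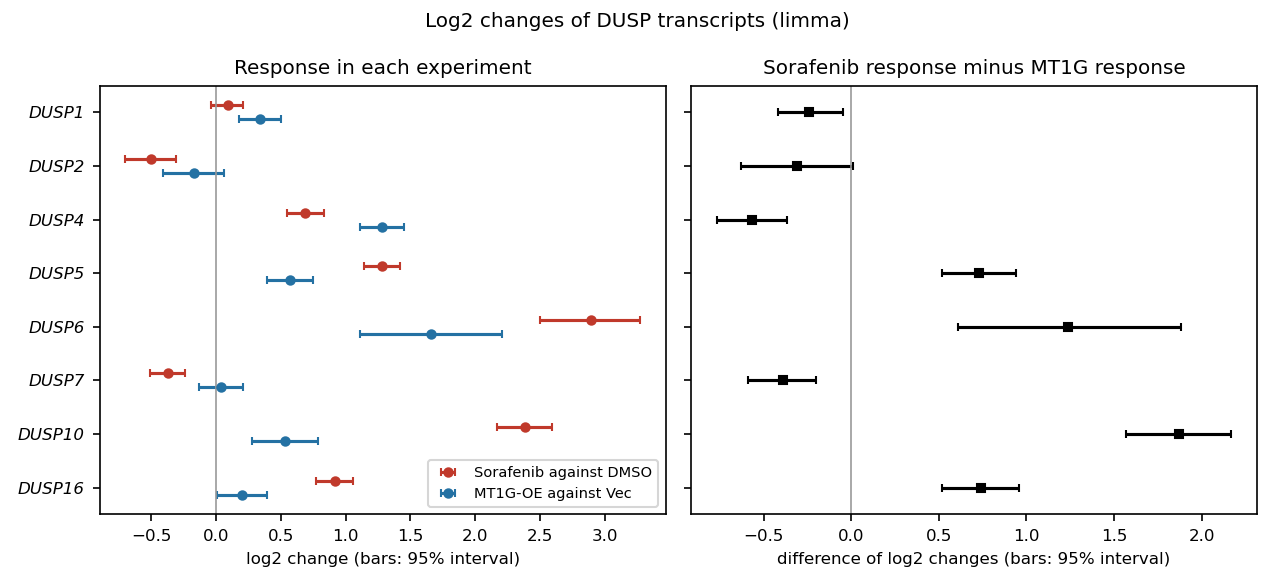
Left, log2 changes with 95% intervals of 8 members for sorafenib against DMSO (upper point of each pair) and MT1G-OE against Vec (lower point). Right, the sorafenib log2 change minus the MT1G log2 change with its 95% interval, where the squares of DUSP5, DUSP6, DUSP10 and DUSP16 lie right of 0 and those of DUSP1, DUSP4 and DUSP7 left of it, with their intervals clear of 0. DUSP8, whose intervals span several units, and DUSP14, which was not tested, are not drawn.

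With the reads of all 12 libraries put on a joint scale, the level of DUSP4 was highest in MT1G-OE cells at 2760 ± 79.3 normalized reads (SD, n = 3), followed by 2160 ± 112 in sorafenib cells, 1318 ± 75.0 in DMSO cells and 1134 ± 62.1 in Vec cells, with no overlap between neighbouring groups. DUSP6 ran in the order sorafenib at 264.8 ± 25.0, MT1G-OE at 59.6 ± 10.2, DMSO at 35.1 ± 9.18 and Vec at 18.2 ± 3.36 normalized reads, again with no overlap between neighbours. DUSP10 was at 982 ± 32.3 in sorafenib cells and 267 ± 13.1 in MT1G-OE cells. Its levels in DMSO cells, 186 ± 25.4, and in Vec cells, 183 ± 7.60, overlapped. DUSP7 was at 964 ± 30.3 in sorafenib cells, 1612 ± 105 in MT1G-OE cells, 1228 ± 22.4 in DMSO cells and 1562 ± 13.8 in Vec cells, so DMSO and Vec cells, the control arms of the 2 experiments, did not overlap for it. Nor did these control arms overlap for DUSP1, DUSP2, DUSP4, DUSP5, DUSP6 and DUSP16. The share of all genes without such overlap was not counted, so this is not read as particular to the members. These orders across experiments carry no test, since experiment and group cannot be told apart there. Transcript lengths were not used, so levels are compared between groups and not between members.

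ATAC-seq gave 139304 and 135681 peaks in the sorafenib libraries, against 131245 and 156770 in the DMSO libraries. Peaks sharing at least 1 bp were merged into 220925 regions, of which 75611 were open in all 4 libraries. All 10 members had at least 1 region open in all 4 libraries within the gene span plus 2 kb, compared with 53.6% of genes with a place in RefSeq. That share includes genes too low to test in RNA, and it was not counted for tested genes alone, so no excess is read from it. A region was called gained with a peak in both sorafenib and no DMSO library, and lost in the reverse case. With 2 against 2 libraries the smallest two-sided exact permutation p is 0.333, so no test was made. Gained or lost regions lay at 4 of 10 members, against 27.1% of all placed genes, with gained ones at 2 members against 12.9% and lost ones at 2 against 19.5%. Among genes tested in the RNA comparison alone, these shares were 41.6% for either kind, 17.7% for gained and 32.9% for lost regions, so 4 of 9 tested members lay near the share of either kind.

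DUSP4, whose transcript rose, had a gained region of 227 bp at chr8:29352081-29352307, in the flank of the gene, with fold enrichments of 2.00 and 2.24 in the sorafenib libraries. DUSP7, whose transcript fell, had a gained region of 363 bp at chr3:52055892-52056254 within its span, at 3.17 and 2.59. Lost regions lay within the spans of DUSP5, at chr10:110500590-110500875 with enrichments of 2.84 and 2.29 in the DMSO libraries, and of DUSP10, at chr1:221720057-221720291 with 2.17 and 3.27. Both genes rose under sorafenib. These 4 regions had some of the lowest enrichments at the members, whose regions open in all libraries reached 16.9.

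Over promoter windows that run from 250 bases before to 50 after a RefSeq start, the authors' fold enrichments at DUSP10 were 13 and 13.6 in the sorafenib libraries, against 12.2 and 14.1 in the DMSO libraries. At DUSP6 they were 9.86 and 9.92 in the sorafenib libraries, against 8.76 and 10.5 in the DMSO libraries. Thus both promoters printed above were open in DMSO cells too, where DUSP6 had 23 to 41 reads. DUSP1 had 4.37 and 4.04 in the sorafenib libraries, against 3.64 and 3.75 in the DMSO libraries. DUSP14, at or near 0 reads, had 3.77 and 2.90 in the sorafenib libraries, against 3.12 and 3.78 in the DMSO libraries. A peak in all 4 libraries lay over 43.3% of all 35116 promoter windows. DUSP7 was the member whose window lacked a peak in 1 library, at 2.37 in sorafenib replicate 3 and none in sorafenib replicate 4, against 9.88 and 12.4 in the DMSO libraries. The merged region that begins inside that window was open in all 4, at 11 and 9.93 in the sorafenib libraries, against 9.88 and 12.4 in the DMSO libraries. The second DUSP10 start had no peak in any library. Peaks were called per library, and an enrichment describes a peak within its own list, so these values are set side by side without a comparison of size.

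**Figure D3:**
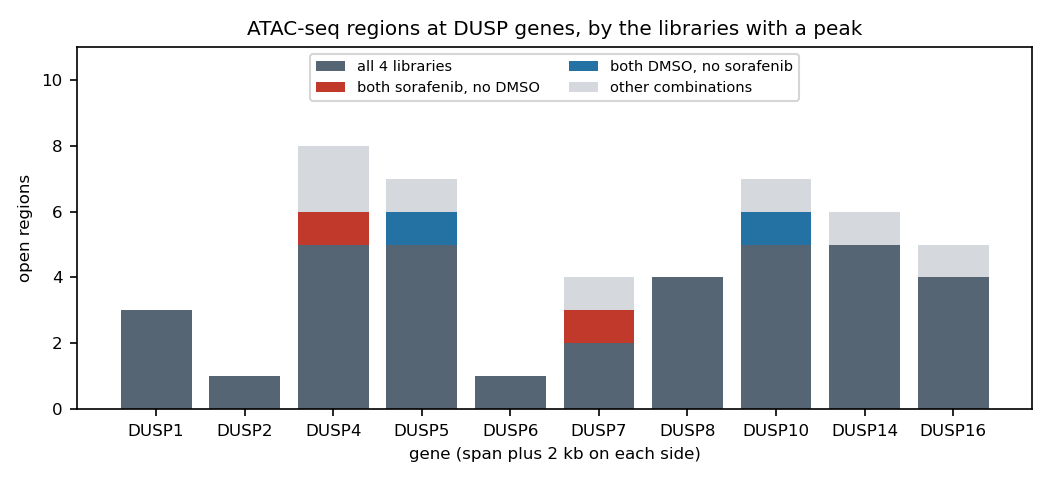
Number of ATAC-seq regions within the gene span plus 2 kb for each of the 10 members, stacked by the libraries with a peak: all 4, both sorafenib and no DMSO, both DMSO and no sorafenib, or other combinations. DUSP4 and DUSP7 carry 1 region found with sorafenib only, DUSP5 and DUSP10 carry 1 found with DMSO only, and DUSP14 has 5 regions open in all 4 libraries.

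Other genes of the same pathways came from lists drawn up with earlier results of these data known, and their counts are descriptions, to be read against the background shares above. Of 14 other DUSP genes 11 were tested for sorafenib, and 5 rose and 1 fell, with a median log2 change of 0.15. On the log2 scale DUSP15 rose by 3.58, DUSP12 by 0.55 and DUSP3, a phosphatase of ERK and JNK, by 0.46, while DUSP9, the third cytoplasmic enzyme beside DUSP6 and DUSP7, fell with a log2 change of -0.80. DUSP15 had 60.8, 71.6 and 61.9 normalized read counts in sorafenib cells, against 2.25, 4.82 and 7.64 in DMSO cells. It thus entered the test only through its sorafenib values. With MT1G overexpression 10 of the other DUSP genes were tested, DUSP15 not among them, of which 2 rose and 3 fell, with DUSP9 at -0.43 and DUSP3 at -0.27. DUSP9 had 1958, 1700 and 1641 normalized read counts in sorafenib cells, against 2919, 2795 and 3551 in DMSO cells. In MT1G-OE cells DUSP9 had 2042, 1785 and 2689 normalized read counts, against 2844, 2763 and 3033 in Vec cells (adjusted p = 0.031, limma). The third MT1G-OE library lay close to the lowest Vec library, and DUSP9 was not refitted with a library left out. DUSP9 thus fell past the threshold in both experiments, as none of the 10 members did. Of 6 tested MAP kinase phosphatases outside the DUSP family, 4 rose and 0 fell with sorafenib, led by the tyrosine phosphatase PTPRR at a log2 change of 1.82. With MT1G overexpression 1 of the 6 rose, PTPRR at 0.64, and 0 fell.

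Among the kinases of the ERK cascade, which the ERK-directed members switch off, 2 of 8 rose with sorafenib, among them BRAF, which encodes a kinase that sorafenib binds, at a log2 change of 0.33, and 4 fell, among them MAPK3, which encodes ERK1, at -0.38. With MT1G overexpression 0 of the 8 rose and 2 fell, MAP2K2 at -0.37 and MAPK3 at -0.26. In the JNK and p38 cascades 3 of 12 tested genes rose with sorafenib and 5 fell. MAP2K3, an activator of p38, rose by 1.22 on the log2 scale and MAPK8, which encodes JNK1, by 0.94, while MAP2K6, another activator of p38, fell with a log2 change of -0.89. With MT1G overexpression 1 of 12 rose, MAP2K6 at 0.23, and 2 fell, MAPK12 at -0.28 and MAP2K7 at -0.25.

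Of 16 tested other transcripts known to follow or limit ERK activity, 11 rose and 2 fell with sorafenib, at a median log2 change of 1.09. Among the 11, SPRY1 and SPRY4 had DMSO means of 8.62 and 4.47 and entered the test only through their sorafenib values. These genes and IER3 were not among those tested with MT1G overexpression, so the tested sets differ. On the log2 scale EGR1 rose by 5.69, FOS by 4.10 and FOSL1 by 2.39, and CCND1, the cyclin D1 gene, and SPRED1, an inhibitor of RAS signalling, had log2 changes of -0.48 and -0.68. With MT1G overexpression 10 of 13 rose and 0 fell, at a median of 0.47, with the smallest p-values for SPRY2, a feedback inhibitor, at 1.77 and the ETS factors ETV5 at 2.43 and ETV4 at 1.02. EGR1, at 0.33 with an adjusted p of 0.508, and FOS, at 0.76 with an adjusted p of 0.0685, did not pass the test there (limma, Benjamini-Hochberg). Of 10 genes listed as output of stress-activated MAP kinases, 8 known as inducible genes and 2 coding for the p38-activated kinases MAPKAPK2 and MAPKAPK3, 8 rose and 1 fell with sorafenib at a median of 1.6. GADD45A at 4.62, GADD45B at 4.49 and ATF3 at 4.17 had the smallest p-values, MAPKAPK3 fell with a log2 change of -0.39, and MAPKAPK2 was at 0.06 with an adjusted p of 0.377. With MT1G overexpression 4 of the 10 rose and 0 fell at a median of 0.25, JUNB at 0.65, ZFP36 at 0.54, JUN at 0.36 and ATF3 at 0.34, whereas GADD45A was at -0.01 with an adjusted p of 0.94.

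**Figure D4:**
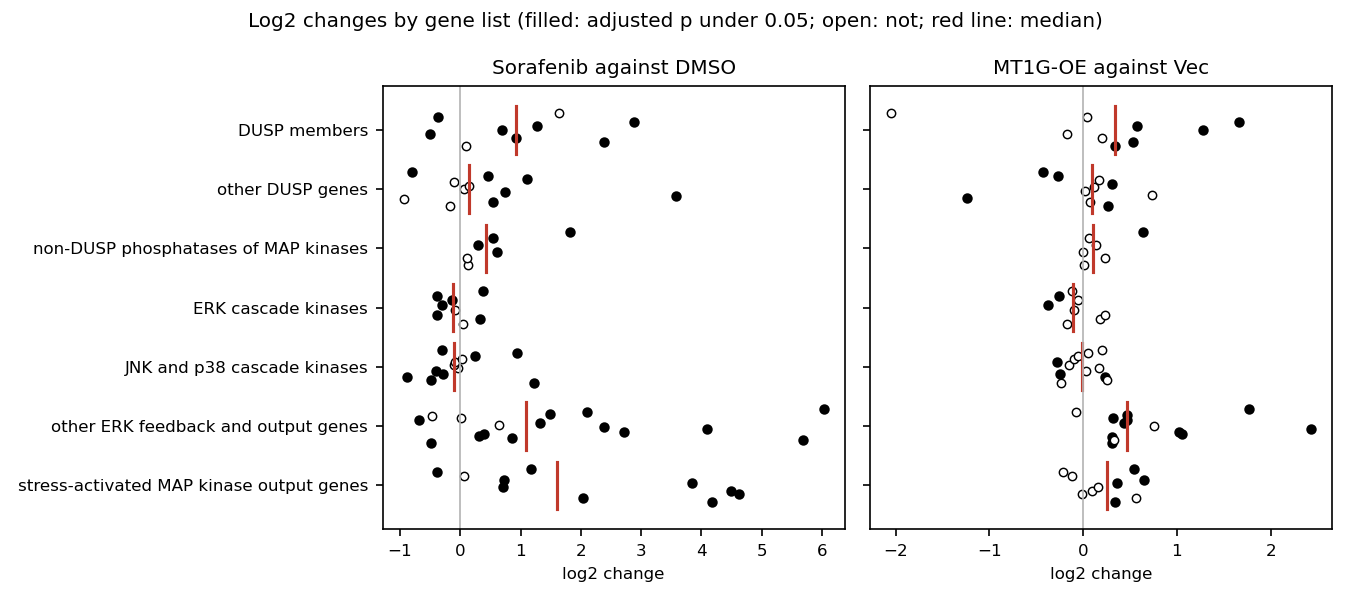
Log2 changes of every tested gene in 7 lists, 1 point per gene, filled at a limma adjusted p under 0.05 and open otherwise, with the median of each list as a red line, for sorafenib against DMSO on the left and MT1G-OE against Vec on the right. The medians of the DUSP members lie at 0.92 and 0.34, and those of the ERK kinases at -0.12 and -0.11.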

How the data were processed

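Cells labelled Huh7 gave 12 RNA-seq and 4 ATAC-seq libraries, grouped by their titles. Columns numbered 1 to 3 in the RNA tables were read as replicates 1 to 3 in the titles. The submitters' processing notes name MACS2 2.2.7.1, Bowtie2 2.4.1, HISAT2 1.1.0, featureCounts 1.6.1, cutadapt, SAMtools, Picard and DESeq2, and the build hg38, without roles. The deposited signal values are normalized read counts per gene. Multiplied by a size factor per library they were whole numbers for 100% of values (tolerance 0.001), which gave back the reads. The authors' tables also held log2 fold changes, test scores and p-values, and the deposited peak lists held a score, the fold enrichment as a ratio over background, and −log10 values of p and q for the peak, in 1 list per library.

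From these, limma 3.58.1 in R 4.3.3 (trend, robust, two-sided) was run per experiment on log2(normalized read count + 1), over genes averaging at least 10, with Benjamini-Hochberg adjustment over all genes tested and a threshold of 0.05. The added 1 alters the fold changes of low genes: for DUSP8 with MT1G overexpression, with 1 library at 0, the log2 change was -2.05 in limma and -0.90 in the authors' deposited table. The difference of the responses was fitted on reads divided by size factors estimated over the 12 libraries. Alternatives included edgeR 4.0.16 and DESeq2 1.42.0 on the recovered reads, and the steps were tested on simulated data. Only a small part of the genes changed in the simulation, unlike with sorafenib, so it did not check the scaling under such broad change. Libraries of a group differed by more than counting noise, which does not show that they came from separate cultures. Each library was counted as 1 replicate. Promoters and positions came from RefSeq (GRCh38.p14, whose chromosomes have the hg38 coordinates). All members are named, as are, from each other list, up to 3 genes higher and 3 lower with the smallest p past the threshold (not every gene that the rule picked is printed), and MAPKAPK2 with sorafenib and EGR1, FOS, ATF3 and GADD45A with MT1G overexpression were added after their values were seen. The members and lists were chosen with earlier results of these data known.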

Additional observations from a re-analysis of the deposited data

How the results depend on the processing

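Of 384 values of single members under other settings, 371 kept their direction and their side of the threshold, 8 lost the call, 5 gained it and 0 changed sign. Those that lost it were all the DUSP1 difference of the responses, for example -0.20 with an adjusted p of 0.0557 with edgeR, and 2 of those that gained it were the DUSP2 difference, -0.38 with TMM factors (adjusted p = 0.046) and -0.43 without MT1G-OE replicate 2 (adjusted p = 0.0145), which was -0.17 without MT1G-OE replicate 3. A minimum absolute log2 change of 1 left 3 members called with sorafenib and 2 with MT1G overexpression, 3199 and 358 of all genes, and 18 and 5 of the pathway lists' genes, against 46 and 25 without it. Leaving out 1 library at a time gave 7 to 8 members called with sorafenib, 5 to 7 with MT1G overexpression and 6 to 8 for the difference. It gave 9580 to 10674 genes of all called with sorafenib and 1771 to 3831 with MT1G overexpression, and 43 to 48 and 15 to 26 list genes. The main counts were 10484 and 3179 genes. Without Vec replicate 2 the MT1G counts were 1886 genes and 15 list genes, and without Vec replicate 3 they were 1771 and 16. Same-numbered libraries did not deviate together (correlations from -0.140 to 0.043), so the numbers were not taken to pair the samples. A replicate block called 7 and 5 members, 10193 and 3257 genes and 45 and 23 list genes, and changed no member's call. With no filter on low values the median log2 change of all genes with sorafenib was 0.265, over the 31858 genes then tested. Keeping peaks whose −log10 q reached 5 left gained or lost regions at 2 members, DUSP5 and DUSP7, in place of 4. Depth limits DUSP6, DUSP8 and DUSP14 most, with under 100 reads in some libraries.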
